A study of Mus musculus with 4 samples.

Results

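The genes described here handle cholesterol once it is inside a cell: they release it from lysosomes, store it as ester, oxidise it or pass it out to lipoproteins. They are 10 genes chosen by name (Abca1, Abcg1, Nr1h3, Apoc1, Ch25h, Lipa, Npc1, Npc2, Soat1 and Nceh1), and all 10 were found among the 18674 gene names of the deposited table. RNA came from the lumbar spinal cord of 4 kinds of mice, with 1 library each. WT vehicle and WT + SD were wildtype animals given vehicle or spermidine (SD), a polyamine. The transgenic animals, named G93A, were given the same. G93A mice carry a mutant human SOD1 transgene (the H1 high-expresser strain, bred with B6/SJLF1 females), which is active in all cell types and makes them a model of amyotrophic lateral sclerosis (ALS). Dosing lasted 30 days, 4 times a week by the sample labels, with PBS as the vehicle. The methods give an age of 100 days at collection and 5 mg/kg by intraperitoneal injection. They name saline and other ages for the injections elsewhere, and the labels give the treatment of the vehicle animals as none. Treated animals were male. How many of them went into a library is not given in the sources used here. With 1 library per condition no difference has a replicate check, no p-value is given, and genotype or SD cannot be told apart from differences between the animals sampled.

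Cholesterol reaches lysosomes as ester in lipoproteins or in engulfed membrane and myelin. Lysosomal acid lipase (Lipa) frees it, Npc2 hands it to Npc1 in the lysosomal membrane, and from there it moves to other membranes. Surplus cholesterol is esterified for storage by Soat1, freed again by neutral hydrolases such as Nceh1, oxidised to 25-hydroxycholesterol by Ch25h, or exported by Abca1 and Abcg1 to apolipoprotein particles. Oxysterols activate the liver X receptors (LXR), of which Nr1h3 encodes the alpha form, and LXR in turn switches on efflux genes. In the spinal cord this traffic is best known from microglia and astrocytes that take up myelin debris and return its cholesterol.

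Values are in RPKM, that is, reads relative to transcript length and to library size. The header names no unit, so it was read from the values, which were used as deposited. A gene was called higher or lower where 2 libraries differed at least 1.5-fold, the threshold of the study, with no pseudocount and with the rows of a name averaged. Depth is not stated. Low values multiplied by transcript length had their most frequent value at a similar step in each library, although only 162 to 181 of 2040 to 2171 low values per library lay within 0.5% of it. If that step is 1 read pair, the libraries hold between 36.8 M and 38.6 M pairs. All numbers of read pairs below rest on this, so they are rough, and no counting interval was drawn from them. Of the microglial marker genes, 9 of 10 were higher in G93A than in WT under vehicle, and 9 of 10 under SD, with P2ry12 as the exception in both. The markers were chosen with earlier results of these data known, so this is no independent check of the genotype labels. Over all names averaging at least 1 RPKM, the median log2 fold change lay between 0.0088 and 0.051 in the 4 comparisons.

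The promoters of 7 of the 10 genes are in the RefSeq table used here (GRCm38.p6, 250 bases before to 50 after a start site). Abcg1, Apoc1 and Npc1 were not printed. The 3 sequences below are shown because these genes mark the range of the result: Abca1 was the gene that was also higher with SD in G93A, Ch25h had the largest genotype difference, and Nceh1 stayed level. Windows were searched on both strands for AGGTCA (the half-site of nuclear receptors), for the LXR type of element (AGGTCA, 4 bases, AGGTCA again, with at most 3 mismatches over the 12 letters) and for CACGTG, the core of the element of the lysosomal regulator TFEB. Capitals mark matches to either of the last 2 patterns.
Abca1, chr4:53159846-53160145, minus strand: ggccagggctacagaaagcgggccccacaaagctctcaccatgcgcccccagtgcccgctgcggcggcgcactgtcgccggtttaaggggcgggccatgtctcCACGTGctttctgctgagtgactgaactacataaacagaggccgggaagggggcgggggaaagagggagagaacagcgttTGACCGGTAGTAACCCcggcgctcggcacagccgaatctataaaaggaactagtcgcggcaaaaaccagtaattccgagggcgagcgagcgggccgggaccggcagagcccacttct
Ch25h, chr19:34475099-34475398, minus strand: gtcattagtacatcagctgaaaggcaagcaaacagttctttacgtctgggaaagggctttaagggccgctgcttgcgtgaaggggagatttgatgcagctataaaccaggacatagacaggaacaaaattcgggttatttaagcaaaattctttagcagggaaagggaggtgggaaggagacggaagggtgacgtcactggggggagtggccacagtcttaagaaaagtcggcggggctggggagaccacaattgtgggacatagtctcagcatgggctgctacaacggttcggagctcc
Nceh1, chr3:27182754-27183053, plus strand: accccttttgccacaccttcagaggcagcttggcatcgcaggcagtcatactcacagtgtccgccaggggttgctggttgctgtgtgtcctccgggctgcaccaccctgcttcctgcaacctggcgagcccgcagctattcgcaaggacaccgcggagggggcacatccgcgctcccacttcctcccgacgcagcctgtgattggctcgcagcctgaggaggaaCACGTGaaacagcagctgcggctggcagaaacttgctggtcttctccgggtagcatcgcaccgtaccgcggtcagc

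The Abca1 window held 1 LXR type match with 3 mismatches, from -67 to -52 of the start site, and 1 CACGTG at -147. The match reads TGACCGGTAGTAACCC on the strand printed. None of the other 6 genes had such a match, and the single remaining CACGTG was that of Nceh1 at -26. No window of these 7 genes held an exact AGGTCA. Of all 32851 windows in the table, 21.9% held an LXR type match with at most 3 mismatches, 7.15% held CACGTG and 16.3% held AGGTCA. The matches are letters in a window and say nothing of binding.

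In the libraries, 6 of the 10 genes (Abca1, Apoc1, Ch25h, Lipa, Npc2 and Soat1) were higher in G93A than in WT under vehicle, and 0 were lower. The same 6 were higher in G93A under SD, again with 0 lower. Abcg1, Nr1h3, Npc1 and Nceh1 were not called in either comparison. Among names above 0 in either library, 20.7% were called higher and 10.5% lower under vehicle, and 23.8% higher and 12.8% lower under SD. All 10 genes averaged at least 1 RPKM, Ch25h only through its G93A libraries. Among the 12987 names with such a mean the shares higher were 13.5% and 16.3%. The 2 genotype comparisons share no library. The median log2 fold change of the 10 genes was 0.92 in both.

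**Figure D1:**
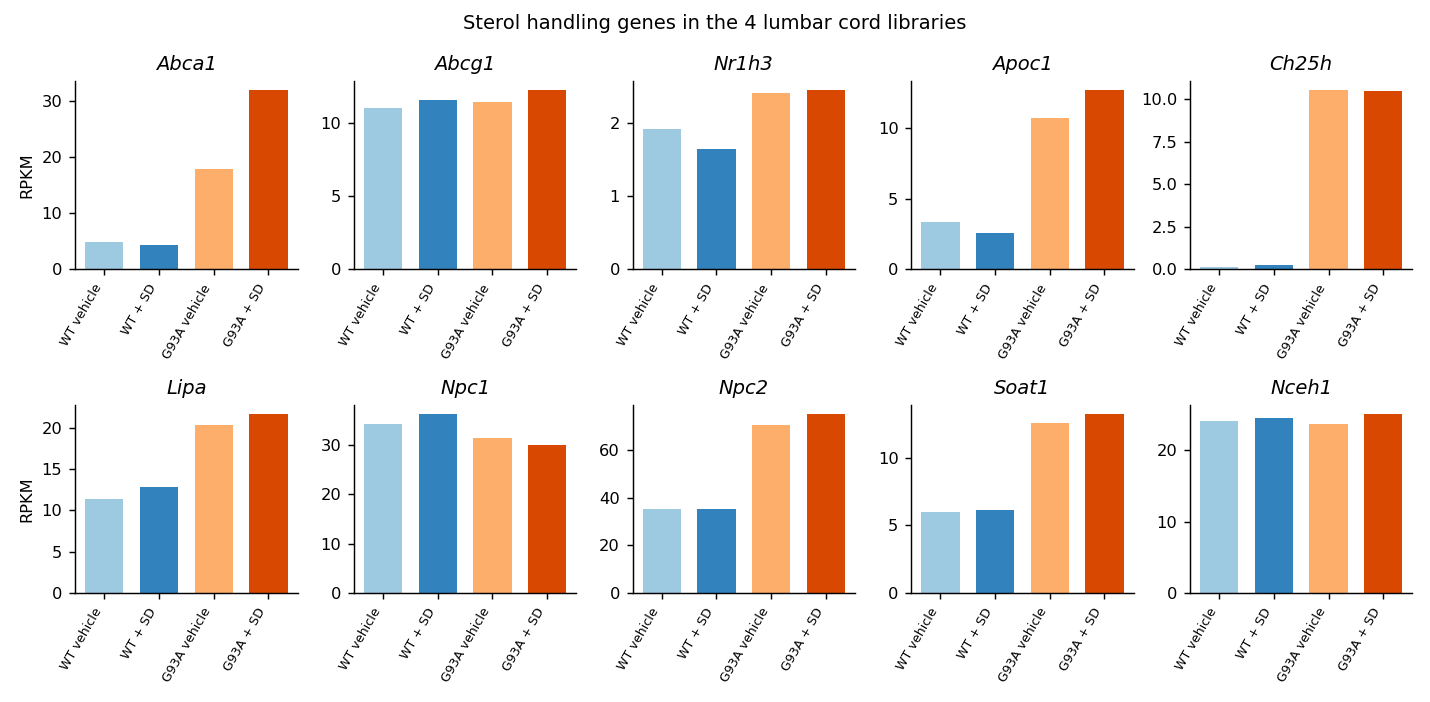
RPKM (vertical axis, from 0) of each of the 10 genes in the 4 libraries, 1 bar per library and no error bar since each condition has 1 library. Abca1, Apoc1, Ch25h, Lipa, Npc2 and Soat1 have both G93A bars above both WT bars by at least 1.5-fold, and the G93A bars of Abca1 differ most, at 17.9 and 31.9 RPKM.

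Taking the libraries by genotype, both G93A values lay at least 1.5-fold above both WT values for the same 6 genes, against 13.1% of all names and 11% of those averaging at least 1 RPKM. Within a genotype the libraries were close. For the 9 genes other than Ch25h, the WT libraries differed by at most 1.32-fold, and for the 9 genes other than Abca1, the G93A libraries differed by at most 1.19-fold.

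Microglial markers moved with these differences. Their summed level over 10 genes was 161.5 RPKM in WT mice on vehicle and 149.9 on SD, and 779 and 833 in G93A mice, which is 4.82-fold higher in G93A under vehicle and 5.56-fold under SD. Among the highest of them was C1qa, a complement subunit. Summed astrocyte markers (7 genes) were 1456, 1398, 3477 and 4034 RPKM in the same order, with 4 of 7 higher under vehicle and 5 of 7 under SD, and Gfap and S100b were the highest. Markers of perivascular macrophages and monocytes (8 genes) summed to between 1.15 and 10.1 RPKM, with 3 higher and 1 lower in G93A under vehicle and 4 and 0 under SD. Ms4a7 and Pf4 were the highest of these, and Ly6c2 was at 0 in G93A vehicle. The 7 motor neuron markers, led by Nefh and Slc5a7, summed to 406 RPKM in WT and 220.2 in G93A under vehicle, with 4 of 7 lower, and to 384 and 143 RPKM under SD, with 5 lower. Of 6 general neuron markers, led by Snap25 and Slc17a6, 3 were lower under vehicle and 4 under SD. Oligodendrocyte markers (7 genes, Mbp among the highest) had 0 and 1 lower, and endothelial and pericyte markers (6 genes, led by Rgs5 and Cldn5) had 1 higher, then 2 higher and 1 lower. In whole tissue, more cells of a type and more RNA per cell cannot be told apart, and the part of these cell types in the results below was not tested beyond the ratios given.

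Among the genes of efflux, Abca1 stood out. Abca1 (chr4:53030787-53159895, minus strand, 50 exons; gene positions are those of GENCODE on GRCm38) encodes the transporter that loads cholesterol and phospholipid onto lipid-poor apolipoproteins. It had 4.90 RPKM in WT mice on vehicle and 4.39 on SD, and 17.9 in G93A mice on vehicle and 31.9 on SD. The WT libraries were close, both G93A libraries lay above them, and G93A + SD was the highest. Abca1 was 3.66-fold higher in G93A under vehicle and 7.27-fold higher under SD. An estimated 1853, 1726, 6997 and 12656 read pairs stood behind the values in the order of the groups above. None of the 10210 windows of 53 bases (a read) in its transcript occurs in a transcript of another gene.

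Abcg1 (chr17:31057675-31117988, plus strand), a transporter that passes cholesterol to lipidated particles, did not differ in this way. It had 11 RPKM in WT mice on vehicle and 11.6 on SD, and 11.4 in G93A mice on vehicle and 12.2 on SD, and the genotypes overlap. Its fold was 1.04 under vehicle and 1.06 under SD. Nr1h3 (chr2:91184061-91202834, minus strand) encodes LXR alpha. It had 1.92, 1.64, 2.42 and 2.45 RPKM in the same order. Both G93A values lay above both WT values, by 1.26-fold under vehicle and 1.49-fold under SD, which is just short of the threshold. Its 2 rows, for 2 transcripts, gave the same order. How many of all names have this order by any margin was not counted.

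Apoc1 (chr7:19689481-19692660, minus strand) encodes a small apolipoprotein that exchanges between lipoprotein particles. It had 3.34 RPKM in WT mice on vehicle and 2.54 on SD, and 10.7 in G93A mice on vehicle and 12.7 on SD. The genotypes were apart by 3.20-fold under vehicle and 5.01-fold under SD. Its transcripts are short, of 432 and 532 bases in the 2 rows, and the lowest value rests on about 45.1 read pairs.

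Apoc1 lies in a cluster with Apoe, Apoc4 and Apoc2 that spans 29.7 kb of chromosome 7, and all 4 genes of the cluster were highest in G93A + SD. So were 8 of the 10 genes described here and 38.5% of all names averaging at least 1 RPKM. Apoe, the main apolipoprotein of the nervous system and an acceptor of the cholesterol that Abca1 exports, had 586, 461, 1975 and 2975 RPKM in that order of libraries. Apoc4 had 0.0068 RPKM in WT vehicle, was listed at 0 in WT + SD, and had 1.28 in G93A vehicle and 3.76 in G93A + SD. Apoc2, an activator of lipoprotein lipase, had 0.018, 0, 0.051 and 1.72 RPKM. The neighbours were grouped with Apoc1 here after their values were seen.

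Ch25h (chr19:34473778-34475164, minus strand, 1 exon) encodes cholesterol 25-hydroxylase, whose product is an oxysterol that also acts as a signal of activated macrophages. It was low in WT, with 0.158 RPKM in WT vehicle and 0.241 in WT + SD, and stood at 10.5 RPKM in both G93A libraries. The genotypes were 66.9-fold apart under vehicle and 43.6-fold under SD, the largest differences of the 10 genes. Among the names with a mean of at least 1 RPKM, Ch25h ranked 22 from the top under vehicle and 36 under SD. Ch25h passes that filter only through its G93A values, so these ranks follow in part from the filter. The WT values rest on about 8.05 and 12.8 read pairs against 556 and 561 in G93A, so the size of the fold is uncertain. With a pseudocount of 1 RPKM the log2 fold change was 3.32 under vehicle in place of 6.06. On the opposite strand Gm26902 covers 11.5% of its exon, and no source says that counting was by strand.

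**Figure D2:**
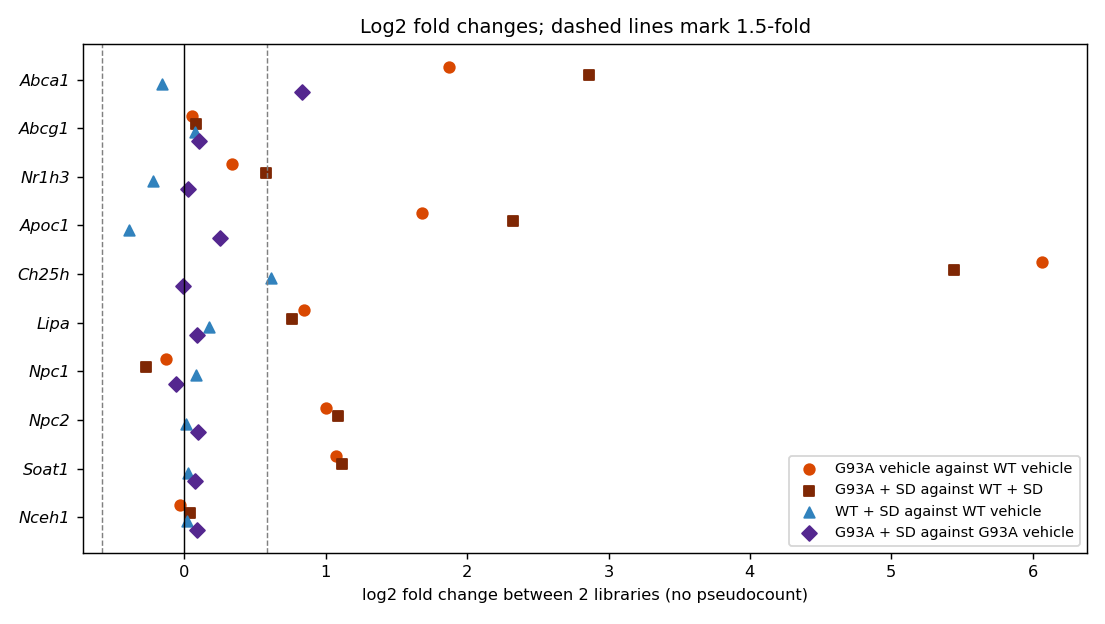
Log2 fold change between 2 libraries (horizontal axis, no pseudocount) for each gene and each of the 4 comparisons, 1 point each, with dashed lines at 1.5-fold. Genotype points lie right of the line for 6 genes, up to 6.06 for Ch25h under vehicle, while SD points cross it only for Abca1 in G93A (0.83) and Ch25h in WT (0.61).

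The lysosomal genes were split. Lipa (chr19:34492318-34527474, minus strand) encodes the acid lipase that hydrolyses cholesteryl esters and triglycerides in lysosomes. It had 11.3 RPKM in WT mice on vehicle and 12.8 on SD, and 20.4 in G93A mice on vehicle and 21.7 on SD, so that G93A was 1.80-fold higher under vehicle and 1.69-fold under SD. Its 2 rows differed by less than 0.1 RPKM in each library. Npc2 (chr12:84754562-84773152, minus strand), the soluble sterol carrier of the lysosome, had 35.2, 35.4, 70.4 and 75.2 RPKM in the same order. That is 2.0-fold higher in G93A under vehicle and 2.13-fold under SD, and Npc2 had the highest mean of the 10 genes, at 54.1 RPKM.

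Npc1 (chr18:12189692-12236400, minus strand), the membrane partner that receives cholesterol from Npc2, went the other way by a small amount. It had 34.3 RPKM in WT mice on vehicle and 36.3 on SD, and 31.3 in G93A mice on vehicle and 30.1 on SD. Both G93A values lay below both WT values, at 0.912 and 0.828 of them under vehicle and under SD, and neither was called. Npc1 was the only one of the 10 genes with this order, but how many of all names have it was not counted. Rmc1 on the opposite strand shares 9.78% of the exon bases of Npc1.

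Of the genes that make and break cholesteryl esters, Soat1 (chr1:156424525-156474331, minus strand), which esterifies cholesterol in the endoplasmic reticulum, had 6.0, 6.12, 12.6 and 13.3 RPKM, in the same order. It was 2.10-fold higher in G93A under vehicle and 2.17-fold under SD, with the genotypes apart. Nceh1 (chr3:27182965-27284608, plus strand), a neutral cholesteryl ester hydrolase, had 24.1, 24.5, 23.6 and 25.1 RPKM. Its genotypes overlap, with folds of 0.978 and 1.03.

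**Figure D3:**
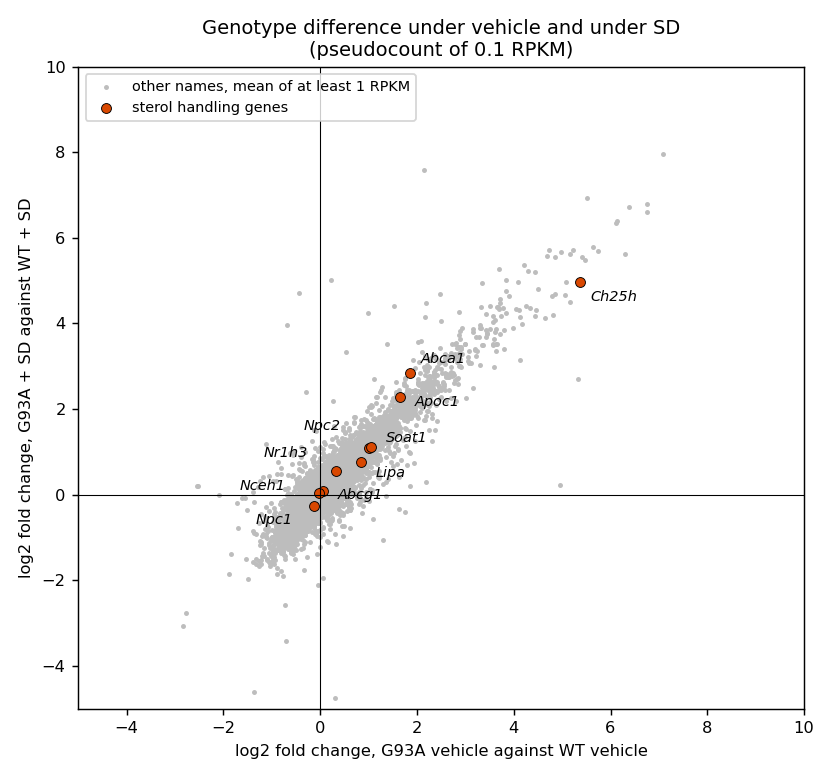
Log2 fold change of G93A against WT under vehicle (horizontal axis) and under SD (vertical axis), with a pseudocount of 0.1 RPKM, for 12987 names with a mean of at least 1 RPKM (grey) and the 10 genes (orange). Each axis is 1 pair of libraries. Ch25h lies near the upper end, Abca1 and Apoc1 follow, and Npc1, Nceh1 and Abcg1 lie near 0.

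Set against the summed microglial markers, most of the genes were lower in G93A. The ratio of a gene to that sum was lower in G93A for 9 of the 10 genes under vehicle and for 8 under SD. Ch25h was the exception in both, at 13.9-fold higher under vehicle and 7.84-fold under SD. Abca1 per summed marker was 0.759 of WT under vehicle and 1.31 under SD. The remaining 8 genes had ratios between 0.189 and 0.665 under vehicle and between 0.149 and 0.900 under SD. Several of them, such as Npc1, are active in neurons and other cells as well, so the ratio is not a level per microglial cell.

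**Figure D4:**
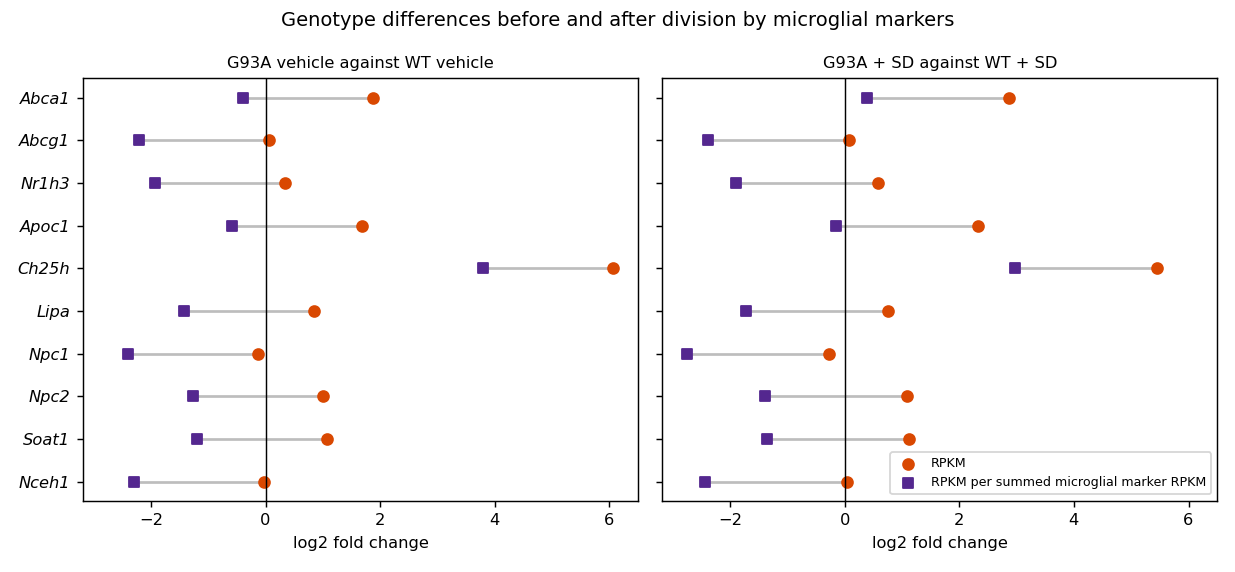
Log2 fold change of G93A against WT for each gene as RPKM (circles) and after division by the summed RPKM of 10 microglial markers (squares), under vehicle (left) and SD (right), 1 pair of libraries each. After division Ch25h lies above 0 in both panels and Abca1 above 0 under SD only, while the other 8 genes lie below 0.

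SD was compared with vehicle within each genotype, in the same 4 libraries as the genotype comparisons. In G93A, Abca1 was the only one of the 10 genes called higher, and 0 were lower, against 8.89% of names higher and 7.46% lower. It went from 17.9 to 31.9 RPKM, which is 1.78-fold, and ranked 64 from the top of the 12987 names with a mean of at least 1 RPKM, of which 1.34% were called higher. The folds of the other 9 genes lay between 0.961 for Npc1 and 1.19 for Apoc1. In WT the Abca1 fold was 0.896, so that the log2 difference between the SD effects was 0.99, which was not tested. Between the G93A libraries the summed microglial markers differed 1.07-fold, with 1 of 10 (Fcrls) higher, and the summed astrocyte markers differed 1.16-fold with 0 of 7 called. Other lists moved more: summed motor neuron markers were at 0.651 of G93A vehicle with 2 of 7 lower (Nefh and Chat). Summed markers of perivascular macrophages and monocytes were 1.36-fold higher with 3 of 8 higher and 1 lower. Most of that sum was Ms4a7 (5.67 RPKM in G93A vehicle and 7.52 in G93A + SD), which was not called. The called genes of that list were all below 1 RPKM. Of the 6 endothelial and pericyte markers Cldn5 was lower, at 0.533. The part of these in the Abca1 difference was not tested. Abca1 per summed microglial marker was 1.66-fold higher in G93A + SD.

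In WT, Ch25h was the only gene called higher with SD, at 1.53-fold, and 0 were lower, against 7.4% of names higher and 8.82% lower. Its values of 0.158 and 0.241 RPKM are those with about 8.05 and 12.8 read pairs, and with a pseudocount of 0.1 RPKM it was no longer called. The other folds lay between 0.760 for Apoc1 and 1.13 for Lipa.

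The wider pathway was read from 6 lists with 74 measured genes. Of these, 26 were higher and 4 lower in G93A under vehicle, and 28 were higher and 3 lower under SD. The shares over all names were 20.7% and 10.5% under vehicle and 23.8% and 12.8% under SD. Among the 60 averaging at least 1 RPKM the numbers were 16 and 1 under vehicle and 20 and 2 under SD, where 13.5% and 16.3% of all such names were higher and 4.68% and 8.12% lower. Apoc4, Msr1 and Gpr183 pass that filter only through their G93A values, so their part in these counts follows in part from the filter. With SD, 8 were higher and 6 lower in G93A, and 3 were higher and 8 lower in WT. Over all names these shares were 8.89% and 7.46% in G93A and 7.4% and 8.82% in WT, so the counts over the 74 lie near or below the background. Of the 60, these were 4 higher and 1 lower in G93A, where 1.34% of all names averaging so much were higher and 1.04% lower, and 1 and 1 in WT, against 0.909% and 1.36%. Named after their values were seen, the 4 were Apoe, Apoc4, Msr1 and Plin4, with folds between 1.51 and 2.93, and the lower gene was Cyp39a1 at 0.661.

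Apolipoproteins and lipid carriers were mostly higher in G93A, with 8 of 11 higher and 1 lower under vehicle and 9 higher and 0 lower under SD. Of the 7 averaging at least 1 RPKM, 5 and then 6 were higher and 0 lower. Both counts include Apoc4, which passes that filter only through its G93A values, with 0.0068 RPKM in WT vehicle and 0 in WT + SD. The genes with the highest means were Apoe, Clu, Apod and Pltp. Clu, a secreted chaperone that also rides on lipoproteins, had 307 RPKM in WT mice on vehicle and 283 on SD, and 931 in G93A mice on vehicle and 1068 on SD. Apod had 286, 228, 367 and 436 RPKM, which is called under SD only. Pltp, a phospholipid transfer protein, had 27.0, 25.9, 32.5 and 32.7 RPKM and was not called. The median log2 fold change of the list (pseudocount of 0.1 RPKM) was 0.98 under vehicle and 1.12 under SD.

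Of 12 LXR partners and targets other than the 10 genes, 3 were higher and 0 lower in G93A under either treatment (2 and 3 of the 11 averaging at least 1 RPKM), with a median log2 fold change of -0.020 under vehicle and -0.031 under SD. Nr1h2, which encodes LXR beta, had 18.6, 17.8, 17.0 and 16.7 RPKM and so stood well above Nr1h3 on this length-scaled unit. Srebf1, an LXR target and regulator of fatty acid synthesis, had 15.2, 13, 18.2 and 21.2 RPKM and was called higher in G93A under SD. The genes called higher in both comparisons were Mylip (2.77-fold under vehicle and 2.59-fold under SD), an LXR target that marks lipoprotein receptors for breakdown, and Lpcat3 (1.58-fold and 1.91-fold), an LXR target that remodels phospholipids. They were named after their values were seen. Ncor1, a corepressor, and Rxrb, a partner receptor, were not called, with folds between 0.993 and 1.05.

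For lipoprotein and sterol uptake, 3 of 12 genes were higher and 1 lower in G93A under vehicle, and 4 higher and 1 lower under SD. Of the 8 averaging at least 1 RPKM, 1 was higher and 0 lower under vehicle, and 2 and 1 under SD. The gene higher under both was Msr1, which passes that filter only through its G93A values. It had 0.011 RPKM in WT vehicle and 0.023 in WT + SD. Lrp1, a large endocytic receptor for Apoe, had 27.3, 24.5, 39.2 and 41.0 RPKM and was called higher in G93A under SD only. Sorl1 and Vldlr, also lipoprotein receptors, were not called.

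Of 9 oxysterol and bile acid genes, 5 were higher and 1 lower under vehicle and 4 and 1 under SD. Several of these calls are of genes at or near 0, and of the 6 averaging at least 1 RPKM, 3 were higher and 0 lower in both. Of these 3, Gpr183 passes that filter only through its G93A values, with 0.475 RPKM in WT vehicle and 0.398 in WT + SD. Cyp27a1 (17.2, 14.5, 16.4 and 13.3 RPKM) and the neuronal 24-hydroxylase Cyp46a1 (14.5, 15.7, 11.5 and 11.9 RPKM) were not called. Hsd3b7 and Cyp7b1, enzymes that process oxysterols further, were called higher, with 4.74 and 9.84 RPKM in WT vehicle and G93A vehicle for Hsd3b7 and 4.75 and 8.45 RPKM for Cyp7b1. The Cyp7b1 substrate includes the product of Ch25h.

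Of 18 genes of sterol transport inside cells, 3 were higher and 1 lower under vehicle and 5 and 1 under SD, and of the 17 averaging at least 1 RPKM, 2 and 1, and 4 and 1. The lysosomal membrane proteins led in level. Lamp1 had 255, 262, 363 and 402 RPKM, Scarb2 69.2, 70.6, 85.3 and 96.0, and Lamp2 43.3, 44.8, 84.9 and 101 RPKM, of which Lamp2 was called higher in G93A under both treatments and Lamp1 under SD. Abca2 had 73.6, 67.3, 57.9 and 51.8 RPKM and was not called. The list had a median near 0, at -0.0072 under vehicle and -0.018 under SD.

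Among 12 measured genes of esterification and lipid droplets, 4 were higher and 0 lower under vehicle and 3 and 0 under SD, and of the 11 averaging at least 1 RPKM, 3 and then 2 were higher. Fabp5, a fatty acid carrier, had 27.4, 30.1, 58.8 and 43.2 RPKM and was called under vehicle. Plin2, the coat protein of lipid droplets in most cells, had 6.80, 6.41, 29.7 and 39.5 RPKM and was called under both treatments, while Plin3 and Mgll were not called.

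The names most like the median profile of the 10 genes were Aprt, Ankrd57, 5033414D02Rik, Cstb and D4Ertd22e. Likeness was the Euclidean distance between centred log2 profiles (pseudocount of 0.1 RPKM) over the 4 libraries, among names with a mean of at least 5 RPKM, and lay between 0.025 for Aprt and 0.042 for D4Ertd22e. Aprt had 6.34, 6.82, 12.3 and 13.2 RPKM, and Cstb, a cathepsin inhibitor, 23.2, 25.0, 45.0 and 46.2 RPKM. With 4 libraries many names share such a profile.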

How the data were processed

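RPKM values deposited by the authors, 1 column per library, were read for the 4 libraries. Per the methods, reads of 53 bases from polyA RNA went through STAR (GRCm38) and HTSeq with Ensembl genes, while the table lists 23750 rows of RefSeq transcripts, and the step between them is not given in the sources used here. The 3 ratio columns hold the comparisons of the authors and were not used. Rows of a name were averaged, which affects 3 of the 10 genes. Genes, lists and tests were chosen with earlier results of these data known. No test was run, since each condition has 1 library, and a fold of 1.5 between libraries counted as a call. Transcript lengths came from GENCODE M21 through RefSeq accessions, for 95.6% of rows. Named genes are the 10 genes, the 4 highest means of each list, the 5 nearest profiles, and of each marker list the 2 highest and those at or near 0, of which a few are not reported here. Outside this rule, P2ry12, Fcrls, Chat, Mylip, Lpcat3, Msr1, Gpr183, Plin4, Cyp39a1, the neighbours of Apoc1 and the profiles nearest to Abca1 were named after their values were seen. Alternatives were median-of-ratios scaling, pseudocounts of 0.1 and 1 RPKM, a mean of at least 1 RPKM, a 2-fold threshold, the highest row, any row, and names above 0 in both libraries. Scripts ran in Python 3.11.15 with pandas 2.3.3, numpy 2.4.6 and, for plots, matplotlib 3.10.9. The call rule was tested on simulated data.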

Additional observations from a re-analysis of the deposited data

Results flagged for a closer look

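The sign of the SD effect differed between genotypes for 5 of the 10 genes. The share of all names that do so was not counted, so this number is no result about the genes. None of these differences was tested, since each effect comes from 1 pair of libraries. For Abca1 the log2 fold change with SD was 0.83 in G93A and -0.16 in WT, a difference of 0.99. For Apoc1 it was 0.25 in G93A and -0.40 in WT, a difference of 0.64, with neither called. For Ch25h it was -0.0094 in G93A and 0.61 in WT, a difference of -0.62. The G93A libraries of Ch25h were alike, at 10.5 RPKM in both, so its sign there carries no direction, and its WT values rest on about 8.05 and 12.8 read pairs. The differences for Nr1h3 (0.25) and Npc1 (-0.14) were smaller and rest on no call. The genotype effect on Nceh1 also changed sign between vehicle and SD, by 0.068, with both effects near 0.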

How the results depend on the processing

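The genotype counts of 6 genes held with median-of-ratios scaling, both pseudocounts, the filter on means, the highest row, any row and names above 0 in both libraries. With a 2-fold threshold they were 5 under vehicle, 5 under SD and 4 for both G93A libraries above both WT libraries. The single SD call in G93A (Abca1) became 0 with a 2-fold threshold. The single SD call in WT (Ch25h) became 0 with a pseudocount of 0.1 RPKM, with a pseudocount of 1 RPKM and with a 2-fold threshold. Of 160 single-gene values under scaling, both pseudocounts and the highest row, 158 kept their call, 2 lost it (both Ch25h in WT) and 0 reversed a called direction. No paired analysis was possible because the groups compared share fewer than 2 replicate numbers. Depth limits Ch25h in WT and, less so, Apoc1.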

Other observations

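The names closest to the profile of Abca1 alone, looked up after its values were seen and among names with a mean of at least 5 RPKM, were Man2b1, Apoe, Pdpn, Prdx6 and Plin2. Man2b1, a lysosomal mannosidase, had 8.64 RPKM in WT mice on vehicle and 7.89 on SD, and 35.6 and 51.9 in G93A mice. Pdpn had 3.56, 3.92, 17.2 and 26.6 RPKM, and Prdx6, an antioxidant enzyme, 102.2, 100.3, 449.9 and 610.2 RPKM. The distances ranged from 0.205 for Man2b1 to 0.302 for Plin2 on the log2 scale over 4 libraries, which is a description and not a test.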
